A study of Mus musculus with 18 samples.

Results

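The genes described here encode subunits of respiratory complexes II to V, the part of the mitochondrial respiratory chain that follows complex I, and of the ATP synthase. Members were taken by symbol alone, as probe sets with 1 gene symbol that begins with Sdh plus a, b, c or d, with Uqcr, with Cox4, Cox5, Cox6, Cox7 or Cox8, or with Atp5. The rule found 71 of 35556 probe sets, for 50 of the 19938 genes that probe sets with 1 symbol name. Complex II had 4 probe sets for 4 genes, complex III 11 for 8, complex IV 21 for 17, and complex V 30 for 17. The 5 other probe sets, for the 4 genes Sdhaf1, Sdhaf2, Sdhaf3 and Sdhaf4, fit the symbol rule but encode assembly factors of complex II, and they were kept out of the complexes. Because 13 genes had more than 1 probe set, counts are given for probe sets and for genes. Shares of the members in percent are of probe sets, so a gene such as Atp5l, with 6 probe sets, enters them several times.

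mRNA of whole mouse lung was measured on 18 Affymetrix Mouse Gene 1.0 ST arrays, which carry probes along the whole transcript, in 6 groups of 3 lungs. ScapΔ/Δ lungs came at E18.5 and at PN1, the day of birth, from mice homozygous for a floxed Scap allele that carry rtTA under the SP-C promoter and a tetO-Cre transgene. Their controls were Scap flox/flox littermates without rtTA or without Cre, on a mixed genetic background. Insig1/2Δ/Δ lungs came at E17.5 from mice with the same transgenes and a floxed Insig1 on an Insig2-/- background, and their littermate controls, which lacked rtTA or Cre, were Insig2-/- as well. Dams of both lines received doxycycline chow for some days of gestation, so that Cre acted in the respiratory epithelium. Other lung cells kept the floxed genes, and the study describes deletion by these transgenes as incomplete. The study asked how SREBP activity in lung epithelium, which needs SCAP as an escort and is held back by the INSIG proteins, acts on the lung around birth.

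Complex II, succinate dehydrogenase, passes electrons from succinate to ubiquinone and belongs to the citric acid cycle as well. Complex III moves the electrons on to cytochrome c, complex IV gives them to oxygen, and complex V uses the proton gradient that results to make ATP. Nuclear genes encode every subunit on the list, while the mitochondrial genome encodes cytochrome b, the core of cytochrome c oxidase and a pair of ATP synthase subunits. Several subunits of complex IV exist in a general form and in a form of heart and skeletal muscle.

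To be tested, a member had to reach the 35th percentile of an array's values on at least 66% of the arrays, and 70 of the 71 probe sets passed, for 49 genes. Cox7b2, a subunit known from testis, did not, with 4.75 to 4.99 on the log2 scale over the 18 arrays. Means of the others ran from 7.04 to 12.91, and 54 of the 70 were among the most strongly expressed probe sets, those with a mean of 9.99 or more in the Scap line.

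Scap was lower on all 6 ScapΔ/Δ arrays, at 9.22 to 9.47 against 9.71 to 9.75 in controls at E18.5 and at 9.53 to 9.65 against 9.76 to 9.92 at PN1. Insig1 was at 8.21 to 8.58 in the Insig1/2Δ/Δ lungs and at 9.29, 9.44 and a higher value in their controls. Lung epithelium and type II cell markers were above the filter (4 of 4 and 6 of 6), and the type II list had a median difference of -0.16 at E18.5, -0.38 at PN1 and 0.12 in the Insig line. Among the ScapΔ/Δ lungs of PN1, KO17 and KO18 stood apart from all other arrays. They correlated at 0.9944 with each other over all probe sets and at 0.9312 to 0.9599 with the other 16, which correlated at 0.9729 to 0.9975 among themselves. The interquartile range was 2.98 on both and 3.42 to 3.61 elsewhere. Medians of the members that rest on KO17 and KO18, and their counts at PN1, are therefore also given without them. This setting was added after the data were seen. In it KO16 alone stands for its group and is assumed to vary like the others.

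At E18.5 most members were higher in ScapΔ/Δ lungs than in controls, in all 4 complexes, by amounts that did not pass the adjusted test. The median log2 difference was 0.22 over the 70 probe sets and -0.04 over all 22800 tested, and 63 probe sets, for 43 genes, lay above 0. By array, the median of the members relative to the mean of the 3 controls was -0.02, 0.03 and -0.02 in C7, C8 and C9 and 0.03, 0.29 and 0.34 in KO10, KO11 and KO12. KO11 and KO12 thus had 63 and 64 of the 70 above the control mean, whereas KO10 lay within the range of the controls. P-values here and below measure only the spread between these lungs. In bulk tissue, fewer cells of a type and less RNA per cell cannot be told apart.

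No member passed an adjusted p of 0.05 at E18.5 in the limma fit (smallest adjusted p = 0.511), and 0.00877% of all probe sets did. With only the 6 arrays of E18.5 in limma, the smallest adjusted p was 0.0963. Again no member passed, against 0.00435% of all probe sets. At an unadjusted p under 0.05, 17 members were higher, for 9 genes, which is 24.3% of those tested against 4.39% of all probe sets, and 0 were lower against 4.85%. The 3 ScapΔ/Δ arrays lay above all 3 controls for 20 members of 16 genes, or 28.6%, against 14.5% of all probe sets. They lay below them for 1 member, or 1.43%, against 21% of all probe sets. Without KO10 the median difference was 0.32, without KO12 it was 0.17, and no member was called in either case. With arrays weighted by their fit to their group, limma called 25 members at E18.5, all higher, or 35.7% against 7.02% of all probe sets that were called higher. In that fit KO17, which stood apart, had the largest weight of the Scap arrays, 10, and KO16 the smallest, 0.0489.

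Markers of some other lung cells varied among the same arrays at E18.5. No fibroblast, endothelial or proliferation marker had an unadjusted p under 0.05 in limma, against 4.39% of all probe sets higher and 4.85% lower. The groups did not overlap for 1 endothelial marker, which was lower, against 21% of all probe sets. All 4 fibroblast markers and all 4 endothelial markers were lower on average in ScapΔ/Δ lungs, each list with a median difference of -0.17. The mean of the fibroblast list was 10.60 to 10.72 in controls and 10.77, 10.46 and 10.29 in KO10, KO11 and KO12. That of the endothelial list was 11.60 to 11.66 in controls and 11.65, 11.35 and 11.35, so that KO11 and KO12, where most members were high, were the low arrays for both. Of the 3 proliferation markers that passed the filter, 2 lay below 0 and 1 above, with a median of -0.21. Their list means were 10.06 to 10.38 in controls and 10.21, 10.03 and 9.81 in deleted lungs. The part of these cell types in the differences of the members was not tested.

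**Figure D1:**
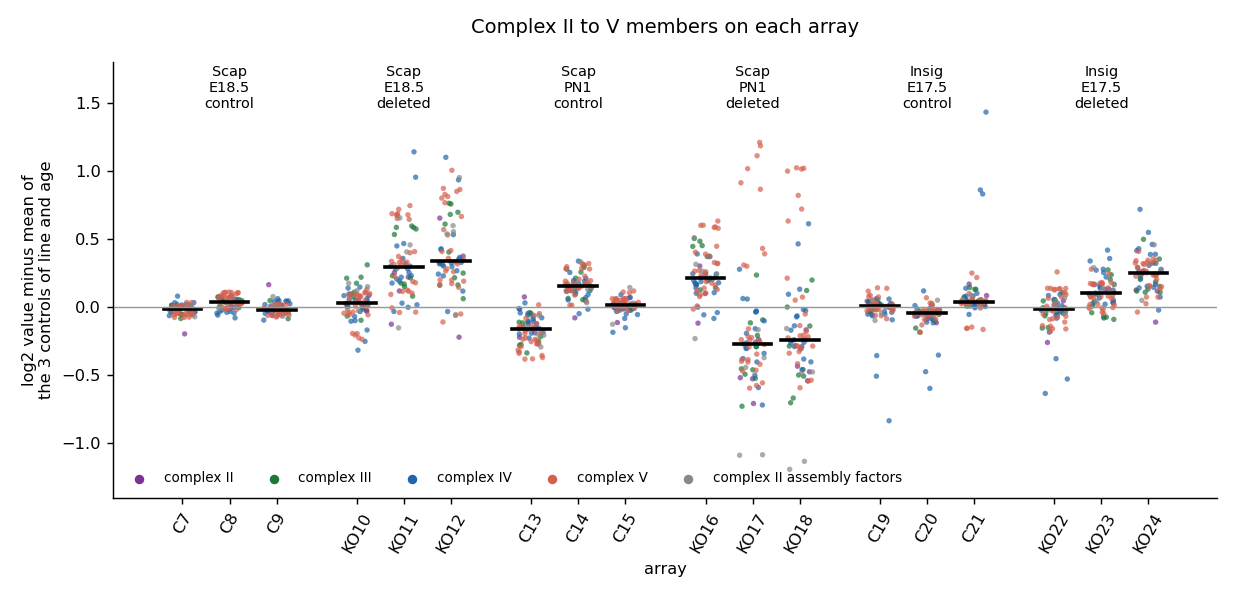
Log2 value of each of the 70 tested probe sets minus the mean of the 3 control arrays of the same line and age, for every array, with points coloured by complex and a black bar at the median of the array. KO11 and KO12 have medians of 0.29 and 0.34, KO16 has 0.22, and KO17 and KO18 lie at -0.27 and -0.24 with a few complex V probe sets above 1.

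At PN1 the members did not move one way across the ScapΔ/Δ lungs. KO16 had a median of 0.22 above the control mean with 63 of 70 members above it, close to KO11 and KO12 at E18.5. KO17 and KO18 had medians of -0.27 and -0.24, with 14 and 17 members above the control mean. Controls also spread, with medians of -0.16, 0.15 and 0.02 in C13, C14 and C15, and 67 of 70 members of C14 but 3 of C13 lay above their mean. The group difference, with a median of -0.11 against -0.06 over all probe sets, is thus an average over arrays on both sides of the controls. Without KO17 and KO18 the median was 0.22, and without KO16 it was -0.26. Most members are strongly expressed, and in the probe sets with a mean of 9.99 or more, a group formed after the data were seen, the median difference at PN1 was -0.19 with 74.1% below 0, and -0.11 for the 54 members in it. At E18.5 it was 0.00, and 0.22 for those 54. Median centring moved the PN1 median of all probe sets from -0.06 to -0.19 and that of the members to -0.24. Relative to all probe sets, the members thus lay at -0.05 with the values as deposited and after centring, and at 0.09 after quantile normalization.

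Fibroblast markers had a list mean of 10.70, 10.18 and 10.45 in C13, C14 and C15 and of 10.83 and 10.87 in KO17 and KO18. The list mean thus was high on the arrays where most members were low. Pdgfra did not follow, at 10.24 and 10.35 in KO17 and KO18 and at 10.46, 10.11 and 10.36 in controls. In KO16 each fibroblast marker lay within the range of the controls. Median differences at PN1 were 0.27 for the fibroblast list, -0.37 for the macrophage list and -0.41 for the erythroid list. The part of these cell types was not tested.

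In the fit of the 12 Scap arrays, no member passed the adjusted test at PN1 (smallest adjusted p = 0.0897 in limma), against 0.00877% of all probe sets. With all 18 arrays in the fit 7 passed, 6 higher and 1 lower, or 10% against 13.2% of all probe sets. At an unadjusted p under 0.05, 9 members of 4 genes were higher, or 12.9% against 11.5% of all probe sets, and 4 members of 4 genes were lower, or 5.71% against 20.8%. The groups did not overlap for 8 members that were higher, or 11.4% against 5.59%, and these belonged to only 3 genes, Atp5l, Atp5k and Atp5md. They did not overlap for 2 that were lower, or 2.86% against 11%. Without KO17 and KO18, 6 members were higher and 1 lower at an unadjusted p under 0.05, against 4.38% and 4.54% of all probe sets, and none passed the adjusted test. KO16 alone lay above all 3 controls for 55 members, against 27.9% of all probe sets, and below them for 2, against 31.5%. Without KO16 the limma fit called 36 members, 9 higher and 27 lower, or 51.4%, below the 61.9% of all probe sets it called.

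In the Insig1/2Δ/Δ lungs at E17.5 the members were slightly higher, with a median of 0.10 against 0.01 over all 22775 probe sets tested and 65 of 70 above 0. The medians of KO22, KO23 and KO24 relative to the control mean were -0.01, 0.11 and 0.25, and those of C19, C20 and C21 were 0.01, -0.04 and 0.04. KO22 lay among the controls by its median. KO24 lay above the control mean for 67 of 70 members and above all 3 controls for 62. No member passed the adjusted test in limma (smallest adjusted p = 0.758), as for 0% of all probe sets. At an unadjusted p under 0.05, 8 members were higher, or 11.4% against 2.2%, and 0 were lower against 1.9%. These 8 belonged to 3 of the 49 tested genes, and 7 of the 8 were in complex V. All 3 deleted arrays lay above the controls for 11 members of 6 genes, or 15.7% against 5.83%, and below them for 0 against 4.22%. The median was 0.19 without KO22 and 0.05 without KO24. All 4 fibroblast markers and all 3 tested proliferation markers were lower on average in the deleted lungs, with medians of -0.25 and -0.40. All 4 type I cell markers were higher, with a median of 0.24. None of these markers had an unadjusted p under 0.05 in limma, and the groups overlapped for each of them. The fibroblast list mean was 11.01 to 11.06 in controls and 11.06, 10.61 and 10.58 in KO22, KO23 and KO24, and the proliferation list mean was 10.84 to 11.44 and 11.38, 10.39 and 10.65. For the type I list it was 10.87 to 11.48 and 11.02, 11.64 and 11.58, so that KO22 lay among the controls for all 3 lists, as it did for the members. Their part in the members' differences was not tested.

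**Figure D2:**
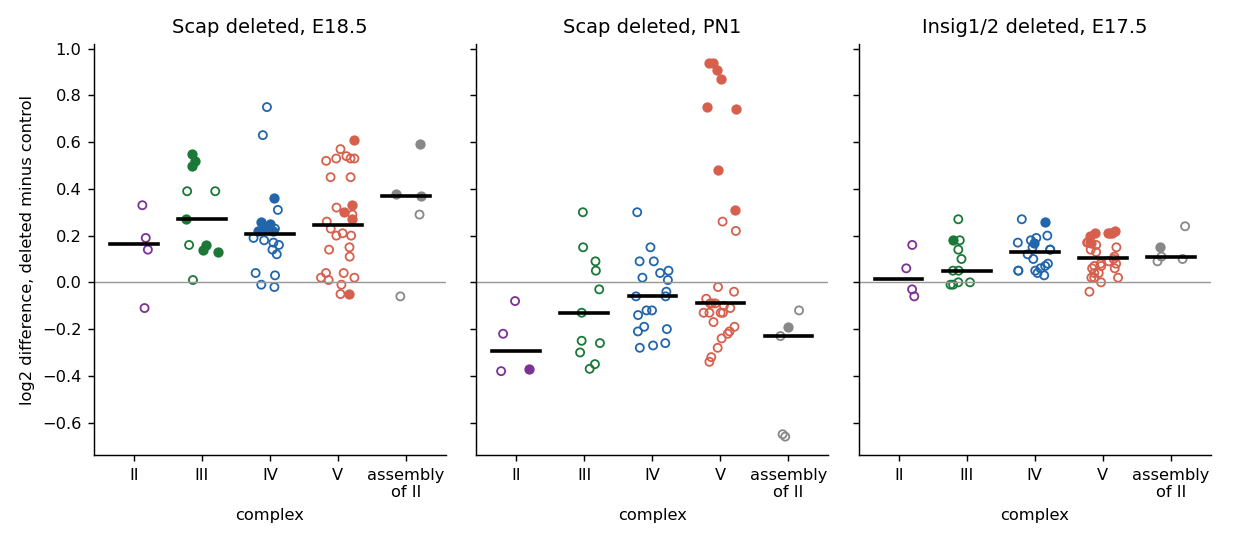
Log2 difference of deleted minus control means for each of the 70 probe sets, by complex, in ScapΔ/Δ lungs at E18.5 and PN1 and in Insig1/2Δ/Δ lungs at E17.5. Filled points have groups that do not overlap and black bars are medians. All 11 complex III probe sets are above 0 at E18.5, and the 6 Atp5l probe sets are the highest at PN1, from 0.74 to 0.94.

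In control lungs the members changed little from E18.5 to PN1, with a median of -0.02 against 0.01 over all probe sets and 31 above and 39 below 0. None passed the adjusted test in limma, against 2.58% of all probe sets. At an unadjusted p under 0.05, 2 were lower against 7.25% of all probe sets, both of them for Cox7a2l. PN1 lay above E18.5 in all controls for 2 members against 17.6% of all probe sets, and below for 8 members of 6 genes, or 11.4%, against 16.5%. In ScapΔ/Δ lungs the same interval had a median of -0.33 against -0.03, with 57 of 70 below 0. The strongly expressed probe sets, those with a mean of 9.99 or more, had a median of -0.21 with 71.7% below 0. The 54 members among them had a median of -0.31. After quantile normalization the median was -0.18 for the members and -0.06 over all probe sets. With the values as deposited, 19 members of 16 genes fell in limma in this interval of ScapΔ/Δ lungs. That is 27.1% against 20.1% of all probe sets that fell and 37.6% that changed in either direction. The groups did not overlap for 7 members that were lower, or 10% against 17.3%, and for 0 that were higher against 16.7%. Without KO17 and KO18 the median was -0.02. With only KO17 left out, 1 member was called, against 7.56% of all probe sets. With only KO18 left out, 2 members were called, against 8.61%. The falls of single genes between these ages that are given below share this limit. With only the 6 arrays compared in the fit, 0 members were called, against 0.281% of all probe sets.

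The difference between the effects at PN1 and E18.5, which shares its arrays with the comparisons above, had a median of -0.29 against -0.03, with 60 of 70 below 0. No member passed the adjusted test (smallest adjusted p = 0.265 in limma), as for 0% of all probe sets. At an unadjusted p under 0.05, 7 were lower, or 10% against 10.1%, and 0 were higher against 8.25%. Without KO17 and KO18 the median was 0.02. After quantile normalization of all arrays of the line it was -0.15, against -0.07 over all probe sets.

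In complex II, Sdha encodes the flavoprotein that oxidises succinate, Sdhb the iron-sulfur subunit, and Sdhc and Sdhd the membrane anchor. Sdha was at 11.45, 11.44 and 11.43 in E18.5 controls and at 11.47, 11.31 and 11.22 in KO10, KO11 and KO12, a difference of -0.11 ± 0.11 (SE, n = 3 per group). KO11 and KO12 thus lay below the controls for Sdha, the opposite of most members. At PN1 Sdha was at 11.51, 11.35 and 11.44 in controls and at 11.31, 10.91 and 10.96 in KO16, KO17 and KO18. All 3 deleted arrays were lower, by -0.37 ± 0.11, which did not pass the test (adjusted p = 0.0914 in limma). Insig controls had it at 11.60, 11.60 and 11.70 and deleted lungs at 11.62, 11.56 and 11.52.

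Sdhd ran at 10.78, 11.01 and 11.14 in E18.5 controls and at 11.06, 11.23 and 11.63 in the ScapΔ/Δ lungs, which overlap. At PN1 it was at 10.87, 11.02 and 10.78 in controls and at 10.99, 10.18 and 10.35 in KO16, KO17 and KO18. KO17 and KO18 lay below every other array of the line. From E18.5 to PN1 Sdhd fell by 0.80 in ScapΔ/Δ lungs (SE 0.21, adjusted p = 0.0203 in limma) and differed by -0.09 in controls. Sdhb was at 10.20, 10.14 and 10.42 in Insig controls and at 10.30, 10.42 and 10.52 in Insig1/2Δ/Δ lungs, with a difference of 0.16 ± 0.10 and groups that overlap. The median of complex II was 0.16 at E18.5, -0.30 at PN1 and 0.01 in the Insig line. At E18.5 the groups overlapped for all 4 of its probe sets.

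The assembly factors help to put complex II together, Sdhaf2 by inserting flavin into Sdha and Sdhaf1 and Sdhaf3 by maturing Sdhb. Their median difference at E18.5 was 0.37, and 4 of 5 probe sets lay above 0. The groups did not overlap for Sdhaf2, Sdhaf3 and 1 of the probe sets for Sdhaf4, against 14.5% of all probe sets that were higher. That Sdhaf4 probe set was at 8.23, 8.25 and 8.14 in controls and at 8.35, 8.86 and 9.16 in ScapΔ/Δ lungs of E18.5. At PN1 it was at 7.94, 8.48 and 8.02 in controls and at 8.46, 7.06 and 6.95 in KO16, KO17 and KO18, and it fell by 1.30 from E18.5 to PN1 in deleted lungs (adjusted p = 0.0227 in limma). KO16 lay near the highest control, and KO17 and KO18 below all other arrays of the line. The other Sdhaf4 probe set, at 6.80 to 7.25 on all arrays, was at 7.16, 7.25 and 7.25 in PN1 controls and at 6.99, 7.05 and 7.06 in deleted lungs. The 2 probe sets differed in direction at E18.5, by 0.59 and -0.06.

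In complex III all 11 probe sets were higher on average in the ScapΔ/Δ lungs of E18.5 (median 0.27), and in 7 of them the groups did not overlap, against 14.5% of all probe sets that were higher, for Uqcr11, Uqcrb, Uqcrfs1 and Uqcrh. Uqcrh, the hinge protein that binds cytochrome c1, was at 11.54, 11.53 and 11.53 in controls and at 11.76, 12.12 and 12.22 in KO10, KO11 and KO12. All 3 deleted arrays were higher, by 0.50 ± 0.16, or 1.41-fold (unadjusted p = 0.0119, adjusted p = 0.511 in limma). In the Insig line it was at 11.30, 11.23 and 11.32 in controls and at 11.33, 11.45 and 11.60 in deleted lungs, again without overlap, with a difference of 0.18 ± 0.09. At PN1 it was at 11.09, 11.52 and 11.31 in controls and at 11.75, 11.19 and 11.43 in deleted lungs, where only KO16 lay above the controls. Uqcrh fell by 0.58 from E18.5 to PN1 in ScapΔ/Δ lungs (adjusted p = 0.0259 in limma), and controls differed by -0.23 without overlap.

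The 2 probe sets of Uqcr11, a small subunit, were higher by 0.52 and 0.55 at E18.5, with 9.78, 9.90 and 9.91 against 10.07, 10.46 and 10.62 for the first. The core protein Uqcrc1 differed by 0.01 at E18.5, at 11.18, 11.19 and 11.17 in controls and 11.08, 11.26 and 11.24 in deleted lungs. At PN1 it was at 11.17, 11.43 and 11.34 in controls and at 11.44, 10.58 and 10.81 in KO16, KO17 and KO18, so that KO16 was the highest and KO17 the lowest. Uqcrfs1, the Rieske iron-sulfur protein, was at 9.41, 9.53 and 9.44 in controls and 9.64, 9.69 and 9.86 in deleted lungs at E18.5. It was at 9.34, 9.59 and 9.43 in controls and at 9.62 and 8.96 in KO16 and KO17, with KO18 near KO17, at PN1, and it fell by 0.54 between the ages in deleted lungs (adjusted p = 0.029 in limma). Uqcr10 was at 9.77, 9.69 and 9.92 in Insig controls and at 9.84, 10.07 and 10.29 in deleted lungs, which overlap. Complex III medians were -0.13 at PN1 and 0.05 in the Insig line.

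**Figure D3:**
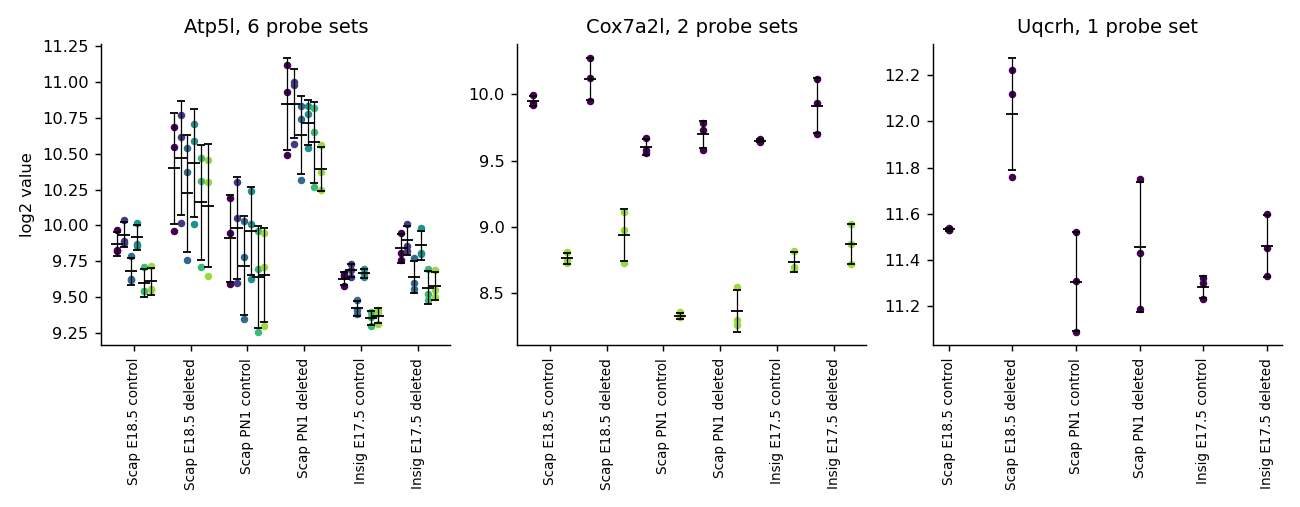
Log2 values of the 6 Atp5l, the 2 Cox7a2l and the 1 Uqcrh probe set in each group, with 1 point per array, 1 colour per probe set and bars at the mean ± SD of 3 arrays. The Atp5l means are highest in ScapΔ/Δ lungs of PN1, both Cox7a2l probe sets are lower at PN1 than at E18.5, and the Uqcrh mean is highest in ScapΔ/Δ lungs of E18.5.

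In complex IV the median difference at E18.5 was 0.21, 18 of 20 tested probe sets lay above 0 and 6 were higher without overlap, against the same 14.5%. Cox6c, a small subunit near the core, had the smallest p, and its probe set was at 12.59, 12.57 and 12.64 in controls and at 12.75, 12.85 and 12.87 in ScapΔ/Δ lungs. The difference was 0.22 ± 0.07 (unadjusted p = 0.0107, adjusted p = 0.511 in limma) and 0.25 ± 0.08 for its other probe set. In the Insig line all 20 were above 0, with a median of 0.13. The groups did not overlap for Cox7a2 and for 1 probe set of Cox7a2l, against 5.83% of all probe sets that were higher. At PN1 the median was -0.06 and no complex IV probe set was free of overlap.

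Cox7a2l, which joins complexes III and IV in supercomplexes, had the smallest p of all members between the ages, in controls and in ScapΔ/Δ lungs. Its first probe set was at 9.92, 9.93 and 9.99 in controls of E18.5 and at 9.56, 9.67 and 9.58 in controls of PN1. Its second was at 8.75, 8.73 and 8.81 and then at 8.32, 8.32 and 8.36. All controls of PN1 were lower, by 0.35 and 0.43 in size, with an adjusted p of 0.0905 and 0.0676 in limma. With only the 6 control arrays in the fit both passed (adjusted p = 0.0115 and 0.00389), and without KO17 and KO18 both passed as well (0.0258 and 0.0156). In ScapΔ/Δ lungs it was at 9.95, 10.12 and 10.27 at E18.5 and at 9.78, 9.58 and 9.73 at PN1 by the first probe set, and at 8.73, 8.98 and 9.11 and then 8.55, 8.30 and 8.26 by the second. It fell there by 0.42 and 0.57 (adjusted p = 0.013 and 0.0069 in limma), with KO16 below all 3 lungs of E18.5 too. Without KO17 and KO18 those p were 0.122 and 0.103, with differences of -0.33 and -0.39. In the Insig line the first probe set was at 9.66, 9.64 and 9.65 in controls and at 9.70, 9.93 and 10.11 in deleted lungs, a difference of 0.26 ± 0.11, and the second was at 8.70, 8.69 and 8.82 against 8.72, 8.87 and 9.02, which overlap.

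Complex V held members with little difference and the members with the largest difference at PN1. The subunits of its catalytic head and central stalk, Atp5a1, Atp5b, Atp5c1 and Atp5d, differed by -0.05, -0.01, 0.11 and -0.05 at E18.5, while the epsilon subunit Atp5e of the same stalk differed by 0.61. Atp5d was at 12.96, 12.94 and 12.98 in controls and at 12.92, 12.92 and 12.90 in ScapΔ/Δ lungs, the only member whose deleted arrays were all lower. The difference of -0.05 was within its SE of 0.09, but that SE also takes in the spread at PN1. There Atp5d was at 12.92, 12.59 and 12.64 in KO16, KO17 and KO18. Atp5e was at 10.54, 10.64 and 10.52 in controls and at 10.64, 11.31 and 11.57 in deleted lungs. KO10 and the highest control were equal to the second decimal, and KO11 and KO12 were higher.

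At PN1 Atp5e was at 10.62 and 10.39 in C14 and C15, lower in C13, and at 10.78, 9.87 and 10.16 in deleted lungs, and it fell by 0.91 from E18.5 to PN1 there (adjusted p = 0.0292 in limma). Atp5j, the coupling factor of the peripheral stalk, had the smallest p of complex V in the difference between the ages. It was at 12.19, 12.17 and 12.20 against 12.19, 12.37 and 12.45 at E18.5 and at 12.25 and 12.13 in C14 and C15, lower in C13, against 12.22, 11.74 and 11.80 at PN1. Over the 30 complex V probe sets the median was 0.24 at E18.5 with 27 above 0 and -0.09 at PN1 with 10 above 0. In the Insig line it was 0.11 with 29 above 0. At E18.5 the groups did not overlap for 4 of the 30 that were higher, against 14.5% of all probe sets. They did not overlap for 1 that was lower, against 21%.

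Atp5l, subunit g of the membrane part of ATP synthase, was the member of complex V with the smallest p in all 3 deletion comparisons. By 1 of its probe sets it was at 9.82, 9.97 and 9.83 in E18.5 controls and at 9.96, 10.55 and 10.69 in KO10, KO11 and KO12. At PN1 the same probe set was at 9.59, 10.19 and 9.95 in C13, C14 and C15 and at 10.49, 11.12 and 10.93 in KO16, KO17 and KO18. In the Insig line it was at 9.65, 9.58 and 9.66 in controls and at 9.76, 9.81 and 9.95 in deleted lungs. The groups overlapped at E18.5, where KO10 lay below C8, and were apart at PN1 and in the Insig line.

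The difference of that Atp5l probe set was 0.53 ± 0.22 at E18.5, 0.94 ± 0.22 at PN1 (1.92-fold) and 0.21 ± 0.07 in the Insig line, with an adjusted p of 0.536, 0.0897 and 0.758 in limma. Over all 6 probe sets it ran from 0.52 to 0.57, from 0.74 to 0.94 and from 0.20 to 0.22. The 6 probe sets may read shared sequence of gene copies. They were 1 gene in the counts of genes but 6 members in the shares of probe sets. KO17 and KO18, which were low for most members at PN1, were the highest arrays for Atp5l. Without them KO16 alone differed from the controls by 0.58 to 0.63, with adjusted p of 0.564 to 0.567 in limma. Under median centring the PN1 differences were 0.61 to 0.81.

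Atp5k, subunit e, which pairs with subunit g in the membrane, was at 8.37, 8.67 and 8.55 in PN1 controls and at 8.92, 8.96 and 9.16 in deleted lungs, a difference of 0.48 ± 0.18. At E18.5 it was at 8.50, 8.51 and 8.47 in controls and at 8.44, 9.14 and 9.26 in deleted lungs, with KO10 below the controls. Atp5md, a small membrane subunit also called DAPIT, had 3 probe sets with differences of 0.22 to 0.31 at PN1 and 0.23 to 0.30 at E18.5. One Atp5md probe set, all 6 of Atp5l and the 1 of Atp5k were the only tested members above every PN1 control on all 3 ScapΔ/Δ arrays.

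Promoter windows from RefSeq on GRCm38.p6, from 250 bases before to 50 bases after the start, were at hand for 35 of the 46 subunit genes, in 38 windows. They were searched on both strands for 5 motifs known from nuclear genes of mitochondrial proteins or from SREBP targets. The ETS core CCGGAA, which GABP binds, was in 44.7% of the windows against 14.9% of all 32851 promoter windows, and the NRF1 core GCATGCGC in 18.4% against 2.71%. The YY1 core AAGATGG was in 7.89% against 6.34%, the ERR site TCAAGGTCA in 5.26% against 0.423%, and the SREBP site CACCCCAC in 0% against 2.87%. None of the 5 motifs contains another, and a match describes letters only. The Atp5l window, shown because Atp5l had the largest difference at PN1, holds 2 ETS cores and 1 NRF1 core, in capitals, and lies on the minus strand at chr9:44920693-44920992.
Atp5l: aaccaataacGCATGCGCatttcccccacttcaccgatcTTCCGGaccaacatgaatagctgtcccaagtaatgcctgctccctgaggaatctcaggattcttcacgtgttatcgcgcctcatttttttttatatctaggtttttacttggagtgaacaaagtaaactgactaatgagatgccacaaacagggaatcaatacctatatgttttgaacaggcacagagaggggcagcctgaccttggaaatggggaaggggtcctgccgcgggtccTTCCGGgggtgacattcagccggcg

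Values of the muscle forms of complex IV differed among arrays of the same group. Cox7a1, the heart and skeletal muscle form of subunit VIIa, was at 8.53, 8.59 and 8.42 in E18.5 controls and at 8.53, 9.65 and 9.61 in KO10, KO11 and KO12. At PN1 it was at 8.25, 8.78 and 8.29 in controls and at 8.68, 7.72 and 8.15 in KO16, KO17 and KO18. The Insig values were 7.92, 8.08 and 9.29 in C19, C20 and C21 and 7.90, 8.59 and 8.98 in KO22, KO23 and KO24. It was thus high in KO11, KO12 and C21, and groups overlapped in every comparison. The difference at E18.5 was 0.75 ± 0.31 (adjusted p = 0.535 in limma), and it fell by 1.08 from E18.5 to PN1 in deleted lungs (adjusted p = 0.0261 in limma).

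Cox8b, the muscle form of subunit VIII, was at 8.45, 8.38 and 8.42 in E18.5 controls and at 8.42, 9.37 and 9.35 in deleted lungs, a difference of 0.63 ± 0.23. At PN1 it was at 8.51, 8.83 and 8.39 in controls and at 8.52, 8.07 and 8.29 in deleted lungs. Its Insig values were 7.27, 7.51 and 9.54 in controls and 7.47, 8.44 and 8.82 in deleted lungs. KO11, KO12 and C21 were again the highest arrays of their lines. Cox6a2, the muscle form of subunit VIa, was at 8.17, 8.05 and 9.36 in Insig controls and at 8.15, 8.65 and 8.94 in deleted lungs. It was at 8.40, 8.43 and 8.49 against 8.27, 8.65 and 8.75 at E18.5 and at 8.47, 8.73 and 8.52 against 8.49, 8.64 and 9.04 at PN1. Without C21 the Insig differences of Cox6a2, Cox7a1 and Cox8b were 0.47, 0.49 and 0.86 in place of 0.05, 0.06 and 0.14.

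All 10 markers of cardiac muscle passed the filter. All 10 lay above the control mean in C21, 7 did in KO11 and 4 in KO12, and at E18.5 the list had 5 above and 5 below 0 with a median difference of 0.05. Their mean log2 value was 9.16, 9.36 and 11.13 in C19, C20 and C21 and 9.44 to 9.78 in the Insig1/2Δ/Δ lungs. It was 9.45 to 9.53 in controls and 9.46 to 9.77 in deleted lungs at E18.5, and 9.61 to 9.73 and 9.26 to 9.91 at PN1. Tnni3, cardiac troponin I, was at 10.98 and 10.77 in KO11 and KO12 against 10.11 to 10.27 on the other arrays of E18.5, and at 11.60 in C21 against 9.28 and 9.38 in C19 and C20. Nppa, the natriuretic peptide of the atria, was at 12.63 in C21 and at 6.49 to 7.74 on all other arrays, KO11 and KO12 among them. Of 6 skeletal muscle markers, 4 passed the filter in the Scap line and 5 in the Insig line, and KO24 was highest for Tnnt3, at 9.23 against 7.55 to 7.95 elsewhere. Of 4 brown fat markers 0 passed. The part of muscle tissue in the values of the muscle forms was not tested.

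**Figure D4:**
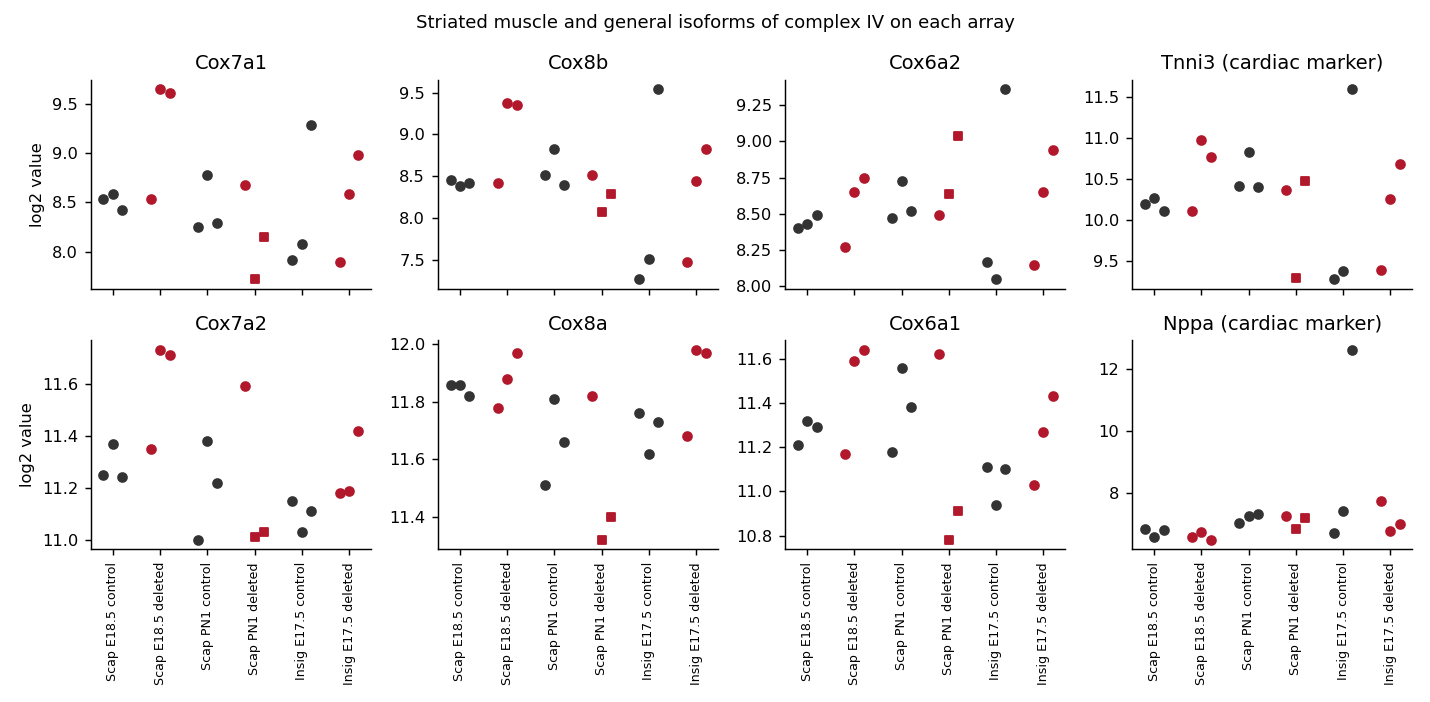
Log2 values on each array for the muscle forms Cox7a1, Cox8b and Cox6a2, their general partners Cox7a2, Cox8a and Cox6a1, and the cardiac markers Tnni3 and Nppa, in black for controls and red for deleted lungs, with squares for KO17 and KO18. Each panel has its own axis. C21 is the highest Insig control for the muscle forms and both markers, at 9.54 for Cox8b and 12.63 for Nppa.

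For the general partners, C21 lay between C19 and C20. Cox7a2 was at 11.15, 11.03 and 11.11 in Insig controls and at 11.18, 11.19 and 11.42 in deleted lungs, a difference of 0.17 without overlap and also 0.17 without C21. It was at 11.25, 11.37 and 11.24 against 11.35, 11.73 and 11.71 at E18.5 and at 11.59, 11.01 and 11.03 in deleted lungs of PN1, where the controls reached 11.38. Cox8a was at 11.86, 11.86 and 11.82 against 11.78, 11.88 and 11.97 at E18.5, a difference of 0.03. It was at 11.51, 11.81 and 11.66 against 11.82, 11.32 and 11.40 at PN1 and at 11.76, 11.62 and 11.73 against 11.68, 11.98 and 11.97 in the Insig line. Cox6a1 differed by 0.19, -0.27 and 0.20 in the 3 deletion comparisons, with 11.21, 11.32 and 11.29 against 11.17, 11.59 and 11.64 at E18.5, 11.18, 11.56 and 11.38 against 11.62, 10.78 and 10.91 at PN1, and 11.11, 10.94 and 11.10 against 11.03, 11.27 and 11.43 in the Insig line.

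The promoter windows of these pairs are shown because the partners differed in their pattern across arrays. The windows of Cox7a2 (minus strand, chr9:79759804-79760103) and Cox8a (minus strand, chr19:7217567-7217866) hold 1 and 3 ETS cores, in capitals. Those of Cox7a1 (plus strand, chr7:30183921-30184220) and Cox8b (minus strand, chr7:140900397-140900696) hold none of the 5 motifs and therefore no capitals. The windows of Cox5a, Cox5b, Cox7a2l and Cox7b hold none of them either, and 4 of the 12 complex IV windows hold an ETS core. No window was at hand for Cox6a2. Whether the motifs bear on the patterns was not tested.
Cox7a2: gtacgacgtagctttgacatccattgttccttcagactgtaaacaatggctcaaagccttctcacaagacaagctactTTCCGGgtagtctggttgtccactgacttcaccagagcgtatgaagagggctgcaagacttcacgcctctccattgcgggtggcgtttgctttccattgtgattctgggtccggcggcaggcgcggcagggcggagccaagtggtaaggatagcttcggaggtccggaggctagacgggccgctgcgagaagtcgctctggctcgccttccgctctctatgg
Cox7a1: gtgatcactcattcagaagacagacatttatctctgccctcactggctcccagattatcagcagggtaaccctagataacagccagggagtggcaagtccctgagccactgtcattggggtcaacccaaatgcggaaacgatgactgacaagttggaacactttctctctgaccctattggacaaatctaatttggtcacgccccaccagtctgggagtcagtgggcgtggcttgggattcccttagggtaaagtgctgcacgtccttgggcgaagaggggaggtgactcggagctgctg
Cox8a: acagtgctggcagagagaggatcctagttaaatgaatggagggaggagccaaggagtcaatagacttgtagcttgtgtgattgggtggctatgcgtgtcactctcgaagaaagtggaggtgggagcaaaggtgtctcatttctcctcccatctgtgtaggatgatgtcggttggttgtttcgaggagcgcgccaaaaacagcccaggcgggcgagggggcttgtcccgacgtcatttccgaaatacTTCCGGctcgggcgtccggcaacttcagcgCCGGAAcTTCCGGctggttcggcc
Cox8b: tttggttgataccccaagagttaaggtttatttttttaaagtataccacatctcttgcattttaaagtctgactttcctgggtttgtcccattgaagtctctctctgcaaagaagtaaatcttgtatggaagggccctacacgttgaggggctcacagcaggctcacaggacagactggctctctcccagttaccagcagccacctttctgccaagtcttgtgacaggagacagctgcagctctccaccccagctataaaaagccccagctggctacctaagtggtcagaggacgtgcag

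The forms of other subunits differed less. Cox4i1, the general form of subunit IV, was at 11.14, 11.23 and 11.15 in E18.5 controls and at 11.26, 11.64 and 11.70 in deleted lungs, a difference of 0.36 ± 0.17 without overlap. Cox4i2, a form known for high expression in lung, was at 10.25, 10.23 and 10.27 in controls, at 10.25 and 10.48 in KO11 and KO12 and below all of them in KO10, a difference of -0.01. From E18.5 to PN1 Cox4i2 was higher in controls, at 10.48, 10.50 and 10.36, by 0.20 ± 0.12, one of the 2 members above without overlap, beside the Sdhaf4 probe set at the lower level. At PN1 Cox4i1 was at 10.85, 11.29 and 11.10 against 11.45, 10.92 and 11.02, and Cox4i2 was at 10.41, 10.15 and 10.21 in deleted lungs. Cox4i1 in the Insig line was at 10.94, 10.85 and 10.97 against 10.95, 11.07 and 11.18, and Cox4i2 at 9.81, 9.86 and 10.04 against 9.72, 10.26 and 10.29.

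Cox6b1 was at 11.93, 11.99 and 11.92 against 12.01, 12.23 and 12.28 at E18.5, without overlap, and differed by -0.06 at PN1 and 0.05 in the Insig line. Cox6b2, known from testis, differed by 0.04, -0.04 and 0.27, and in controls it was lower at PN1, at 8.79, 9.06 and 8.85 against 9.26, 9.14 and 9.15 at E18.5. Cox8c, known from testis as well, was at 7.74, 7.66 and 7.72 against 7.71, 7.68 and 7.68 at E18.5 and at 7.62, 7.61 and 7.75 against 7.66, 7.94 and 8.27 at PN1. Only KO17 and KO18 lay above the PN1 controls for Cox8c, with a difference of 0.30 ± 0.13 (adjusted p = 0.143 in limma). Cox8c differed in the Insig line by 0.03.

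The genes Atp5g1, Atp5g2 and Atp5g3 encode the same mature subunit c, which forms the rotor ring. At E18.5 their 6 probe sets differed by 0.01 to 0.14, below the complex V median, and none had groups apart. Atp5g1 was at 11.53, 11.52 and 11.43 against 11.26, 11.61 and 11.69 at E18.5 and at 11.49, 11.92 and 11.87 against 11.94, 11.16 and 11.17 at PN1 by the probe set with the smallest p of complex V between the control ages. That difference, PN1 minus E18.5 in controls, was 0.26 ± 0.21. Atp5g3 was at 11.50, 11.57 and 11.44 against 11.45, 11.73 and 11.76 at E18.5. The 3 Atp5g2 probe sets differed by 0.02 to 0.04 at E18.5, by -0.13 to -0.11 at PN1 and by 0.16 to 0.17 in the Insig line.

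Other genes of oxidative metabolism were read from lists for comparison, with 1 probe set per gene. The 36 subunits of complex I had a median of 0.24 at E18.5 with 34 above 0, of -0.19 at PN1 with 5 above 0, and of 0.14 in the Insig line with 33 above 0. For 28 tested assembly factors of complexes II to V, the 4 Sdhaf genes included, the medians were 0.17, -0.31 and 0.10. The 18 tested genes of electron carriers, cytochrome c and the enzymes of ubiquinone among them, had medians of 0.09, -0.19 and 0.08. The 16 tested citric acid cycle genes had medians of -0.01, -0.39 and -0.05, and 13 regulators of mitochondrial genes had -0.01, -0.34 and -0.05. None of these lists had a gene past the adjusted test in the 3 deletion comparisons in limma. At an unadjusted p under 0.05 the complex I list had 5 higher and 0 lower at E18.5, and the citric acid cycle list 0 and 0. At PN1 they had 1 higher and 2 lower, and 0 higher and 10 lower. The shares of all probe sets were 4.39% and 4.85% at E18.5 and 11.5% and 20.8% at PN1. From E18.5 to PN1 in ScapΔ/Δ lungs, 12 of 36 complex I genes fell in limma, as did 14 of 28 assembly factors, 5 of 18 electron carriers, 3 of 16 citric acid cycle genes and 7 of 13 regulators, against 20.1% of all probe sets. In the other direction 2 assembly factors and 1 regulator rose, against 17.5% of all probe sets. In the order given, the medians of the lists in this interval were -0.42, -0.50, -0.29, -0.26 and -0.41, against -0.03 over all probe sets. When KO17 and KO18 were left out, they were -0.00, -0.06, 0.01, 0.16 and -0.07, against 0.02.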

How the data were processed

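RNA of whole lungs, with 3 biological replicates per condition, was hybridised to Mouse Gene 1.0 ST arrays and analysed by the authors with GeneSpring GX. The authors deposited 1 table of log2 values for 35556 probe sets on 18 arrays. How probes were summarised and normalised is not given in the sources used here. The log2 values were used as deposited, and probe sets took the gene symbol of the platform annotation, where 21789 had 1 symbol, 1621 several and 12146 none. Probe sets with several symbols were left out, among them 3 that name Cox7c with another gene.

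A probe set was tested where it reached the 35th percentile of its array on 66% of the arrays. Group means were fitted with limma 3.58.1 in R 4.3.3, on 12 arrays for the Scap line and 6 for the Insig line, with Benjamini-Hochberg adjustment over all probe sets tested and a threshold of 0.05. The fit was tested on simulated data. Alternatives were other scalings, filters, array weights, other sets of arrays and leaving out each array. Groups were called apart where every array of one lay above every array of the other. Genes named for complexes II to V were those with the smallest p in each comparison, the paired forms of a subunit, probe sets of 1 gene that differed in direction and members against the general direction. Members, lists and named genes were chosen with earlier results of these data known. The number of arrays limits the precision.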

Additional observations from a re-analysis of the deposited data

Results flagged for a closer look

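Cox8b, the muscle form of subunit VIII of complex IV, differed between the ages in the effect of Scap deletion by -0.91 on the log2 scale (unadjusted p = 0.0184, adjusted p = 0.265 in limma). It was singled out because its deleted lungs lay on opposite sides of the control mean at E18.5 and PN1, a rule that does not test the difference. KO10 deviated from that mean by only 0.0019 and KO16 by -0.057, and both lay within the range of their controls. The flag thus rests on KO11 and KO12 against KO17 and KO18. Groups of 3 arrays are too small to look for single outlying values.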

How the results depend on the processing

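The median difference of the members kept its sign at E18.5, PN1 and in the Insig line when any 1 array was left out. It ran over 0.17 to 0.32, -0.26 to -0.02 and 0.05 to 0.19. It was -0.44 to -0.20 for the difference between the ages, -0.10 to 0.06 between control ages and -0.49 to -0.23 between ages in ScapΔ/Δ lungs. At PN1 the members lay above the median of all probe sets without C14 (-0.02 against -0.06), KO17 (-0.03 against -0.04) or KO18 (-0.03 against -0.05). Quantile normalization moved the members' median relative to all probe sets from -0.25 to -0.08 for the difference between the ages. Between ages in ScapΔ/Δ lungs it moved it from -0.30 to -0.13. Without KO17 and KO18, a setting chosen after seeing the data, the medians were 0.22 at PN1, 0.02 for the difference between the ages and -0.02 in ScapΔ/Δ lungs. The number of members called by limma changed more. With array weights, KO16 had a weight of 0.0489 and KO17 of 10. The number was then 25 at E18.5, 56 at PN1, 24 in the Insig line and 55 for the difference between the ages (median -0.50). It was 2 between control ages and 60 between ages in ScapΔ/Δ lungs. The shares of all probe sets called were then 11.2%, 68.1%, 36.7%, 64.4%, 12.5% and 76.1%, beside 35.7%, 80%, 34.3%, 78.6%, 2.86% and 85.7% of the members. With all 18 arrays in the fit it was 7 at PN1, 1 between control ages and 35 in ScapΔ/Δ lungs, against 13.2%, 3.79% and 47.9% of all probe sets. With only the 6 arrays compared, it was 2 in the control interval and 0 in that of ScapΔ/Δ lungs, against 11.1% and 0.281% of all probe sets. In ScapΔ/Δ lungs it was 38 after median centring and 6 with an unmoderated test, in place of 19, while 37.9% and 26.8% of all probe sets were called. Leaving out 1 array gave 0 to 36 at PN1 and 0 to 42 for the difference between the ages, each highest without KO16, and 1 to 57 in ScapΔ/Δ lungs, lowest without KO17 and highest without KO16, where 61.9%, 58.4% and 72.1% of all probe sets were called. The cause was not tested. No paired analysis was possible because every array has a replicate number of its own.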
